A study of Homo sapiens with 45 samples.

Results

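MG63 is a human osteosarcoma cell line, 1 of 6 such lines in a set of poly(A) RNA sequencing libraries from cultured cells. The series held 45 libraries. The 3 MG63 libraries were set against 15 libraries of the osteosarcoma lines G292, HOS-MNNG, KHOS, SAOS2 and U2OS, with 3 libraries per line. The labels name no treatment and no introduced construct in any osteosarcoma line. The remaining libraries came from 7 Ewing sarcoma lines, a tumour type whose driver joins EWSR1 to an ETS factor gene, and from hairpin-carrying A673 cells, which are not described here. The labels do not say whether the libraries of a line were separate cultures, so a test over libraries measures only the spread between these samples, which may be technical. HOS-MNNG and KHOS both derive from the HOS line and are not independent of each other. Each line therefore counted as 1 unit, and a gene was described as highest or lowest in MG63 where all 3 MG63 TPM values lay above or below all 15 values of the other lines. TPM is a transcript level scaled for transcript length and for the depth of the library.

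Osteosarcoma cells make bone matrix to a varying degree, and lines differ in how much of the osteoblast programme they keep. That programme runs from the transcription factors RUNX2 and SP7, through alkaline phosphatase (ALPL) and type I collagen, to late bone proteins such as osteocalcin (BGLAP). The tumours are also known for broken and rearranged chromosomes and for loss of the RB pathway, through RB1 or the CDKN2A locus on the short arm of chromosome 9. IGFBP3, the marker given for MG63, encodes a secreted protein that binds insulin-like growth factors.

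The 250 bases upstream of 3 start sites that the results turn on are shown here from RefSeq (GRCh38.p14), all on the minus strand and written 5′ to 3′. IGFBP3 (chr7:45921273-45921522) is the marker. ZDHHC21 (chr9:14693433-14693682) and KLHL9 (chr9:21335405-21335654) lie towards either end of a run of chromosome 9 genes described below. Capitals mark matches to 3 short motifs searched on both strands, namely TATAAA, the core of the TATA box, a variant of it that reads TATATA, and the GC box core, which is GGGCGG or its reverse complement.
IGFBP3: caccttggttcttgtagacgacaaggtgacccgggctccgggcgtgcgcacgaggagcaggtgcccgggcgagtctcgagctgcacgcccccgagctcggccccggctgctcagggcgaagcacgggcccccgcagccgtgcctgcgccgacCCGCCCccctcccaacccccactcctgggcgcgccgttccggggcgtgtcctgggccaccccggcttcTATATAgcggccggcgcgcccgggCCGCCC
ZDHHC21: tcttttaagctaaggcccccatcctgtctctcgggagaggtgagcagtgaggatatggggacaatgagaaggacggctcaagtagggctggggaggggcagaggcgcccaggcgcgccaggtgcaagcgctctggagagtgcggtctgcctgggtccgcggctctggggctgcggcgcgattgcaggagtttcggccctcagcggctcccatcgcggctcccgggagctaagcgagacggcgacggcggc
KLHL9: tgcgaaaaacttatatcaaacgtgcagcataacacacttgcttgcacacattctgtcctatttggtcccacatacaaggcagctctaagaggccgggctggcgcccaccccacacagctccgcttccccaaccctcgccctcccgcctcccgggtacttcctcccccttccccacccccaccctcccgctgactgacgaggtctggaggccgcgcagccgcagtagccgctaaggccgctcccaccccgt
The IGFBP3 stretch held 1 TATATA and 2 matches to GGGCGG. The ZDHHC21 and KLHL9 stretches held none of the 3 motifs. Over all 35116 RefSeq promoter entries, 10.7% held TATAAA in the same 250 bases, 3.73% TATATA and 42.6% GGGCGG. A match is a description of letters only.

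The MG63 libraries were shallow, and 2 of the 3 had fewer counts than any other osteosarcoma library, with 18887090, 15974173 and 27725699 estimated counts against 25834254 to 44911542 in the other 15. Log2 CPM of MG63 libraries correlated pairwise at a Pearson r of 0.986 to 0.988 across 21915 genes, which are not independent replicates, against 0.988 to 0.993 within the other lines. By Spearman correlation of line means, which share the same genes and pipeline, MG63 was closest to G292 (0.875), with HOS-MNNG (0.868) and KHOS (0.861) nearly as close. It was farthest from U2OS (0.82), and HOS-MNNG and KHOS stood at 0.97 to each other. Among genes used here to check the osteosarcoma label, ALPL (2.82 TPM), COL1A1 (853 TPM), COL1A2 (838 TPM) and SPARC (1335 TPM) were present in MG63 by mean level, while RUNX2 was under 1 TPM. Of the osteoblast list described below, SP7, DLX5, SPP1, IBSP, BMP2, PTH1R, DMP1, MEPE, SOST, TNFSF11, SMPD3 and OMD were also under 1 TPM. The other members reported here were above it. The summed level of 15 Ewing sarcoma markers was 74.1 to 85.6 TPM in MG63, 49.2 to 119.6 in the other osteosarcoma lines and 1678 to 3551 in the Ewing lines, with 4 of 15 at 0 in MG63. The 10 epithelial markers summed to 25.5 to 33 TPM (other lines 3.57 to 47.5), 8 endothelial markers to 23.9 to 26.2 TPM (5.19 to 98.3) and 12 blood cell markers to 24.8 to 30.6 TPM (5.13 to 125.8). Single members led these sums, namely KRT19 (28 TPM), EGFL7 (12.2 TPM) and CD68 (16.1 TPM), and 8 of 10, 4 of 8 and 10 of 12 members were under 1 TPM. Their part in the results was not tested.

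With lines as units, 0 of 26632 genes (0.0%) were called at an FDR under 0.05 by edgeR's quasi-likelihood test, and 1516 had an unadjusted p under 0.05. The smallest adjusted p was 0.0889, and the median log2 fold change over all genes was -0.32. DESeq2 on the same line sums called 655 genes (2.46%), 245 higher and 410 lower in MG63. With 1 line against 5, an exact permutation over lines cannot give a p below 0.167. The differences below are therefore those between MG63 as grown here and each other line as grown here.

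With libraries as units, 2087 of 21915 genes (9.52%) were higher in MG63 than in each of the 5 lines and 1725 (7.87%) were lower, each called at an FDR under 0.05 in all 5 contrasts of edgeR's test. Below, "higher than in each line" and "lower than in each line" refer to these calls, and the share of every gene list called higher or lower is to be read against these 9.52% and 7.87%. As a description, 2209 of the 26632 genes (8.29%) were highest and 1894 (7.11%) lowest in all 3 MG63 libraries. Both conditions together held for 1773 genes on the high side and 1478 on the low side.

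**Figure D1:**
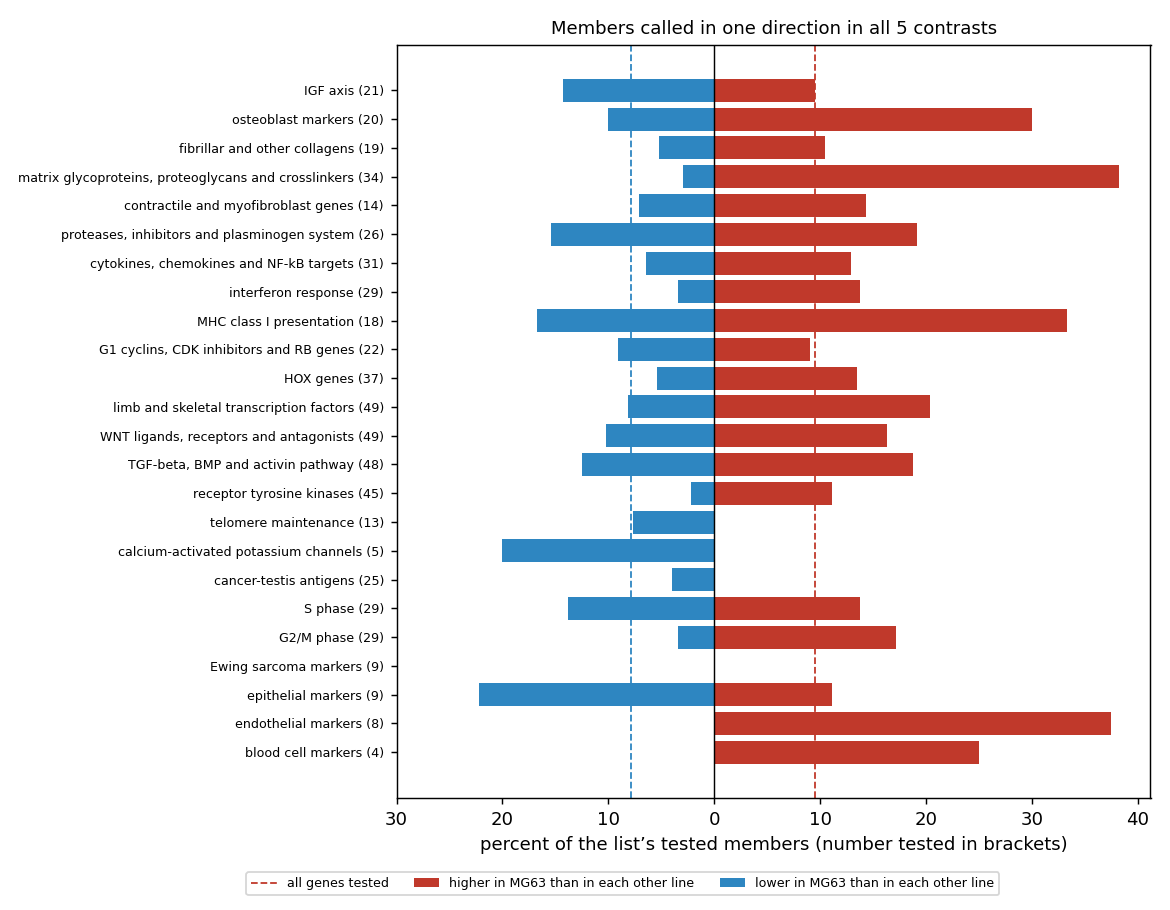
Share of each gene list called in 1 direction in all 5 contrasts of MG63 with another osteosarcoma line (x axis, percent of the members tested, whose number stands in brackets), red for higher and blue for lower in MG63. Dashed lines give the shares over all 21915 genes, 9.52% and 7.87%. Matrix proteins (38.2%), endothelial markers (37.5% of 8), MHC class I presentation (33.3%) and osteoblast markers (30%) had the longest red bars.

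IGFBP3 was given as the marker of MG63 with earlier results of these data known, so its levels are a description and support nothing. IGFBP3 (chromosome 7, 45912245 to 45921272, GRCh38.p14) stood at 63.4, 53.3 and 47.6 TPM in the MG63 libraries, a mean of 54.7 ± 7.97 TPM (SD, n = 3). Line means elsewhere were 11.5 TPM in SAOS2, 9.79 in KHOS, 8.47 in G292, 2.15 in HOS-MNNG and 0.049 in U2OS, and no library overlapped with MG63. By edgeR with libraries as units, the log2 difference ran from 2.18 against KHOS to 10.35 against U2OS. With lines as units the log2 fold change was 3.04 ± 1.69 (SE), with an adjusted p of 0.883 by edgeR. Transcript NM_000598.5 held 99.6% of the MG63 level. The Ewing lines reached 46.4 TPM in MHHES1.

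Of 21 genes of the insulin-like growth factor axis tested, IGFBP3 included, 2 were higher than in each line and 3 lower (9.52% and 14.3%, against 9.52% and 7.87% over all genes), so the share higher equals that over all genes. The median difference in log2(TPM + 1) between MG63 and the mean of the other lines was -0.54, against -0.06 over all genes tested. The other member higher was IGFBP7, also a secreted binding protein, which stood at 127, 165 and 158 TPM in MG63 and at 11.4 to 76 TPM elsewhere. IGFBP2 was highest in all 3 MG63 libraries without being called in all 5 contrasts, with a mean of 134 TPM against 95.3 in KHOS. On the low side was STC1, a secreted glycoprotein that inhibits the protease PAPPA, with 0 counts in MG63 and line means of 0.746 to 101 TPM elsewhere. PAPPA itself, which cleaves IGF-binding proteins, was at 0.0333 TPM against 0.189 to 4.95 TPM. IGF2BP1, an RNA-binding protein, was at 0.332 TPM against 0.941 to 25.8 TPM. The growth factor IGF2 was near 0 in MG63 (0.0181 TPM) and in G292 (0.014 TPM) but reached 60.9 TPM in HOS-MNNG.

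The genes with the largest log2 fold changes of the line fit, among genes whose log2 CPM averaged 1 or more and that were highest in all 3 MG63 libraries and higher than in each line, were led by DNER, a Notch-binding surface protein. None of the 11 described passed the test with lines as units, where their adjusted p by edgeR ran from 0.118 (SAMD5) to 0.883 (TMEM119). DNER stood at 182, 207 and 202 TPM in MG63, and the other 15 libraries ran from 0 through a median of 1.04 to 8.58 TPM. COL3A1, the chain of type III collagen found in soft connective tissue, stood at 904, 740 and 757 TPM, against a median of 0.632 and a highest value of 25.5 TPM in U2OS. By contrast with single lines, the log2 difference was 5.19 to 13.19 for DNER and 5.36 to 12.08 for COL3A1.

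ASS1, the arginine-making enzyme argininosuccinate synthase, stood at 1898, 1972 and 2084 TPM against a median of 25.6 and a highest value of 175.7 TPM in G292. ALDH1A3, which makes retinoic acid, stood at 327, 332 and 308 TPM, against at most 24.3 TPM in SAOS2. TMEM119, known in osteoblasts and microglia, stood at 321, 271 and 299 TPM, and G292 came nearest with 52.7 TPM. LSP1, an actin-binding protein known from leukocytes, stood at 154, 163 and 175 TPM against at most 11.6 TPM. The remaining genes of the 11 were the extracellular matrix protein SVEP1, the scramblase PLSCR4, the serine protease PRSS12, SAMD5 and AIF1L. Their MG63 values lay between 36.4 TPM (SAMD5) and 155 TPM (PRSS12), and no other osteosarcoma library exceeded 13.7 TPM (AIF1L in U2OS).

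The 12 genes at the other end were all below 0.1 TPM in every MG63 library, and their adjusted p by edgeR with lines as units ran from 0.228 (DMRTA1) to 0.883. STC1, EPB41L3, TMEM200C and DMRTA1 had 0 counts over the 3 MG63 libraries. Against a floor of 3 counts over the group, which covers counting error only, the mean of the other 5 lines was at least 1156-fold higher for STC1, 675-fold for EPB41L3, 368-fold for TMEM200C and 120-fold for DMRTA1. Against the lowest other line, the bound fell to 27.1-fold for STC1, 2.46-fold for EPB41L3, 5.03-fold for TMEM200C and 50.9-fold for DMRTA1. STC1 was not called in all 5 contrasts when U2OS or the libraries of any 1 replicate number were left out (smallest contrast -8.15 to -8.52), nor was TENM3 without replicate 1 (-5.70). The order among these genes rests on how a fit treats a count of 0 and carries no weight.

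PTHLH, the parathyroid hormone-related protein, had 1 count in MG63 and 4.81 to 53.4 TPM in the other libraries, a ratio of 923 (95% exact interval 166 to 36439, counting error only). ADGRL2, an adhesion receptor of the latrophilin family, had 2 counts in MG63 and 2.60 to 54.1 TPM elsewhere, a ratio of 3515 (815 to 24322). SATB1, a chromatin organiser, reached 0.017 TPM in MG63 against 0.048 TPM in KHOS at the least and 28.1 TPM in G292 at the most. BAALC reached 0.073 TPM against 0.13 to 221 TPM, and ZNF711 0.026 TPM against 0.217 to 16.7 TPM. TENM3, PCLO and B4GALNT3 were at or below 0.024 TPM in MG63. The MG63 values lay apart from every other library in all 12 genes, but for SATB1, EPB41L3 and TMEM200C the lowest other library was itself under 0.05 TPM.

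**Figure D2:**
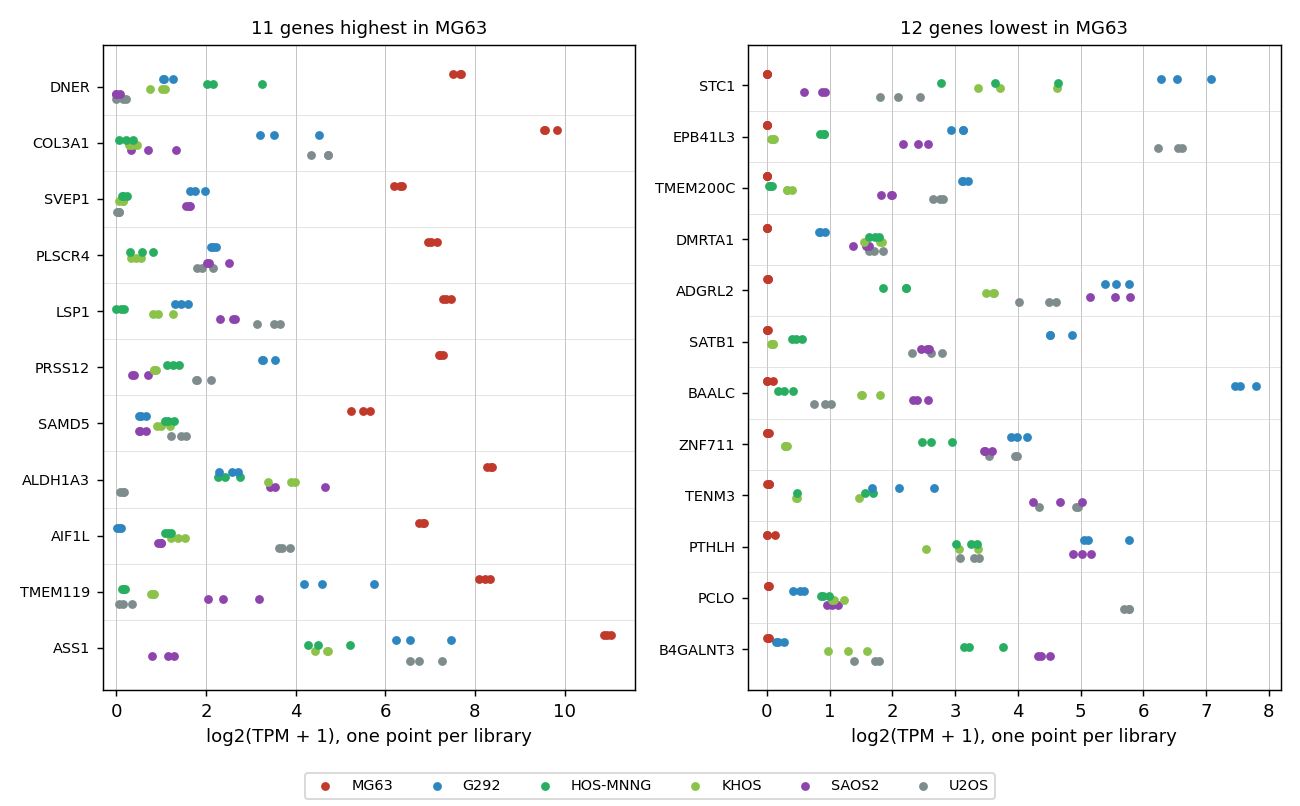
Level of the genes described at either end, 11 high and 12 low (x axis, log2(TPM + 1)), 1 point per library, coloured by osteosarcoma line. MG63 (red) lies to the right of all other points on the left panel, for example ASS1 at 1898 to 2084 TPM, and at or beside 0 on the right panel.

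Some genes were present in MG63 and nearly absent from the other 5 lines. After their values were seen, 18 genes were picked with an MG63 mean of at least 10 TPM and a mean under 0.5 TPM in every other osteosarcoma line. FAM107A, an actin-associated protein, stood at 340, 315 and 298 TPM, with a highest value of 0.279 TPM elsewhere. MYOC, myocilin, had 4073 counts in MG63 and 0 in the 15 other libraries, at least 10589-fold higher when 3 counts are allowed over those libraries. The transporter SLC47A2 stood at 67.1, 51.5 and 57.7 TPM against at most 0.47 TPM. Its adjusted p was the smallest of the line fit (0.0889 by edgeR), a value that ZDHHC21, described below, shared to the digits given.

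Among transcription factors of that group, TP63 stood at 23, 25 and 23.7 TPM against at most 0.165 TPM. HAND1, a factor of heart and limb bud, stood at 12, 11.8 and 12.4 TPM, and HMX1 at 10.7, 11.6 and 11.6 TPM. The epithelial keratin KRT19 was part of the same group, with 31.4, 27.8 and 24.7 TPM against at most 0.218 TPM, while EPCAM and CLDN4 were lower than in each line. The sodium channel SCN3A, the lectin-pathway protease MASP1, the steroid enzyme HSD17B2, ABCA8, ADGRG7, LYNX1, KCNMB2, PRR33, PSG1 and the noncoding RNAs LINC01013 and LINC01608 completed it, at 7.95 to 50.3 TPM in MG63. PSG1 belongs to a family of near-identical genes, among which reads can be split.

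A further 3 genes, singled out after their values were seen, were of the same kind but exceeded 0.5 TPM on average in at least 1 other line. TCF21, a mesenchymal transcription factor, stood at 337, 336 and 341 TPM against at most 0.888 TPM. ALDH3A1, an aldehyde dehydrogenase of the cornea and stomach, stood at 963, 896 and 1030 TPM against at most 1.87 TPM. FGF18, a growth factor of cartilage and bone, stood at 98.2, 87.2 and 86.4 TPM against at most 0.887 TPM. In the Ewing lines, TCF21 and ALDH3A1 did not exceed 0.487 TPM and FGF18 did not exceed 2.54 TPM.

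Among osteoblast markers, 6 of 20 tested were higher than in each line and 2 were lower (30% and 10%, against 9.52% and 7.87% over all genes). Their median difference was -0.12 on the log2(TPM + 1) scale, so the middle of the list did not lie higher. Members under 1 TPM in every line, such as IBSP and TNFSF11, give differences near 0 on that scale and weigh on this median. RUNX2, the factor that starts the osteoblast lineage, stood at 0.603, 0.29 and 0.277 TPM in MG63. The other 15 libraries ran from 5.65 TPM in KHOS through a median of 9.49 to 193 TPM in SAOS2, with log2 differences from -7.33 to -3.64. DLX5, another early osteoblast factor, had 0 counts in MG63 and line means from 0.105 TPM in KHOS to 74.9 TPM in SAOS2, and was not called in all 5 contrasts without replicate 1 or 3 (-3.18 and -4.30). SPP1, osteopontin, had 1 count and was lowest in MG63 without being called in all 5 contrasts, with SAOS2 at 0.213 TPM. ALPL lay inside the range, at 2.69, 3.23 and 2.54 TPM, between HOS-MNNG (0.482 TPM) and U2OS (5.91 TPM), with G292 at 12.5 TPM and SAOS2 at 824 TPM.

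Those higher included both secreted and membrane proteins of bone cells. TNFRSF11B, osteoprotegerin, which restrains osteoclast formation, stood at 260, 290 and 262 TPM in MG63 and at 1.99 to 37.8 TPM elsewhere. BGLAP, osteocalcin, stood at 9.96, 6.68 and 5.56 TPM against at most 1.39 TPM, a log2 difference of 3.70 to 5.66. Its reads can be shared with an overlapping readthrough gene. SPARC, osteonectin, averaged 1335 TPM against 163 to 810 TPM. PDPN, podoplanin, an osteocyte protein, stood at 63.1, 58.6 and 60.1 TPM, against 26.9 TPM in U2OS and under 0.07 TPM in G292 and SAOS2. PHEX, also of osteocytes, averaged 2.22 TPM against 0.143 to 0.813 TPM. The osteocyte genes DMP1, MEPE and SOST of the same list were at 0 TPM in MG63. They were low in the other lines too, with SOST in U2OS highest at 0.325 TPM. MG63 thus combined the lowest RUNX2 with the highest BGLAP, TNFRSF11B and SPARC among the 6 lines.

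**Figure D3:**
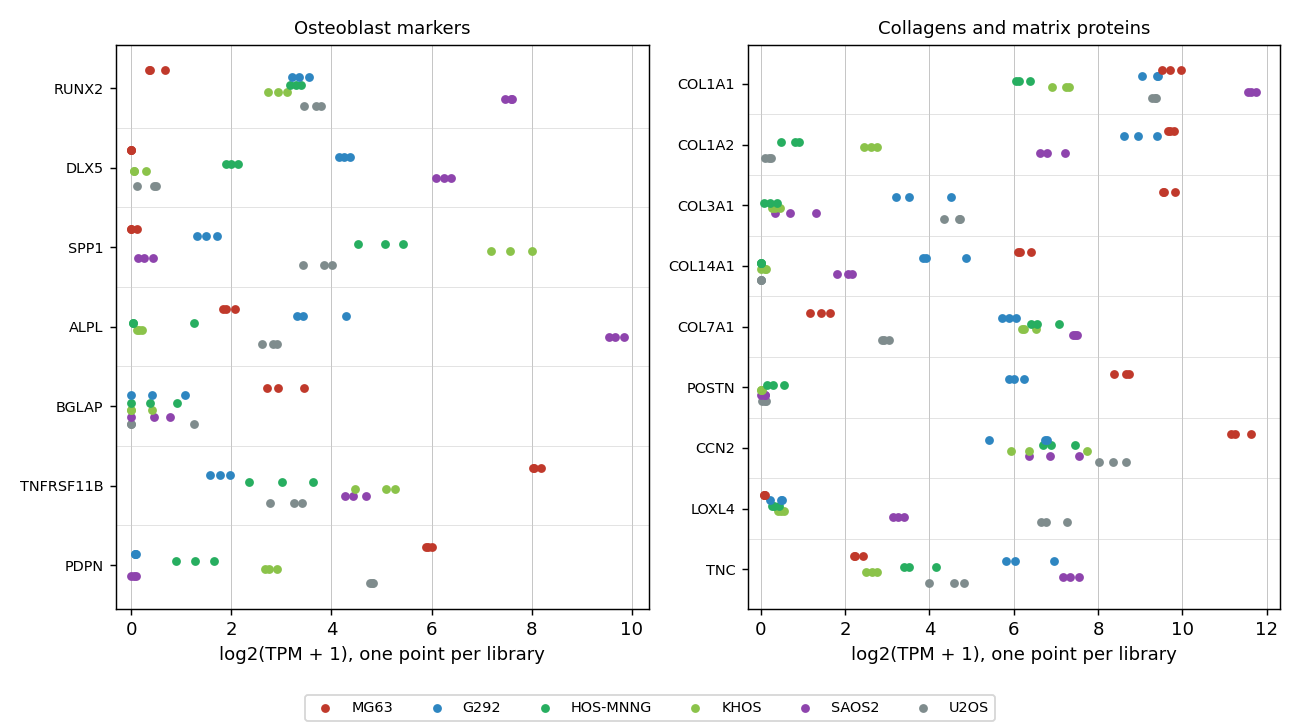
Level of 7 osteoblast markers (left) and 9 collagen and matrix genes (right) on the log2(TPM + 1) scale, 1 point per library, coloured by line. MG63 (red) is leftmost for RUNX2 (0.277 to 0.603 TPM), DLX5 and SPP1, rightmost for BGLAP, TNFRSF11B, PDPN, COL3A1, POSTN and CCN2, and within the range for ALPL and COL1A1.

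Collagen genes as a list did not stand apart by count, with 2 of 19 higher and 1 lower than in each line (10.5% and 5.26%). Their median difference was 0.68 on the log2(TPM + 1) scale. COL1A1 stood at 834, 729 and 995 TPM, between U2OS (645 TPM) and SAOS2 (3192 TPM), and its line-fit log2 fold change of 0.09 turned to -0.21 without HOS-MNNG. COL1A1 and COL1A2 were counted among the osteoblast markers and not among these 19. COL1A2, the partner chain of type I collagen, was higher than in each line, with 832, 800 and 883 TPM in MG63 and 520 TPM in G292, but 0.69 TPM in HOS-MNNG and 0.134 TPM in U2OS. It was not called in all 5 contrasts without replicate 2 or without replicate 3 of every line, where its smallest difference was 0.67 and 0.45. COL14A1, a fibril-associated collagen, averaged 74 TPM against 18.6 TPM in G292 and 3.06 TPM or less in the others. COL7A1, the anchoring fibril of skin, was lower than in each line, with 1.69 TPM against 6.70 TPM in U2OS and 58.6 to 174 TPM in the rest.

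Matrix glycoproteins, proteoglycans and crosslinking enzymes had the largest share higher in MG63 among the lists plotted. Of 34 tested, 13 were higher than in each line and 1 was lower (38.2% and 2.94%), and the median difference was 0.83. CCN2, a matricellular growth factor also called CTGF, stood at 3170, 2424 and 2280 TPM in MG63, and the other libraries ran from 41.5 through a median of 116 to 404 TPM. Its log2 difference was 3.24 to 4.94 by contrast, and its adjusted p with lines as units was 0.12 by edgeR. POSTN, periostin of the periosteum, stood at 428, 402 and 331 TPM. G292 reached 65.6 TPM for POSTN and the other 4 lines were below 0.3 TPM.

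Crosslinkers of collagen and elastin were among those higher, with LOX at 126 TPM against 6.97 to 31.6, LOXL1 at 356 TPM against 14.1 to 172 and LOXL3 at 15 TPM against 3.14 to 6.66. LOXL4, of the same family, went the other way, with 0.0623 TPM against 0.272 to 121 TPM. LOXL2 was called in neither direction, at 132 TPM against 25.1 to 192 TPM. Of the microfibril genes in the list, MFAP2 (405 TPM against 1.82 to 184), FBN1 (141 TPM against 3.65 to 91.2) and FBN2 (36.9 TPM against 2.11 to 33.2) were higher than in each line, although FBN2 was not highest in all 3 MG63 libraries. MFAP5 was not called, at 13.2 TPM against 63.4 TPM in U2OS. The proteoglycan BGN averaged 843 TPM, against 451 in G292 and 0.159 in SAOS2. THBS2 averaged 217 TPM against 0.507 to 75.7, LAMA4 43.7 TPM against 0.13 to 8.49 and NID1 53.9 TPM against 24.7 to 43.8. TNXB was called on counts, although its mean TPM in G292 (8.61) was above that in MG63 (7.26). Tenascin C (TNC) was lowest in MG63, at 3.63 to 4.36 TPM, with KHOS at 4.66 TPM at the least and SAOS2 at 186 TPM at the most.

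Of 14 contractile genes tested, 2 were higher than in each line (TPM2 and DES) and 1 was lower (CNN2), shares of 14.3% and 7.14% that are near those over all genes, with a median difference of -0.60. TPM2, a tropomyosin, stood at 2259, 2427 and 2659 TPM against at most 1805 TPM in G292. DES, desmin, was present at only 1.42 to 2.23 TPM and was not called in all 5 contrasts without replicate 2 or 3 of every line (smallest contrast 0.97 and 1.07). The smooth muscle genes CNN1, TAGLN and ACTA2 were high in SAOS2 (260, 210 and 490 TPM) and stood at 0.0321, 1.45 and 13.1 TPM in MG63. U2OS was also high for CNN1 (83 TPM) and TAGLN (80.2 TPM), and only KHOS (0.0276 and 0.698 TPM) lay below MG63 for these. For ACTA2, every line but SAOS2 lay below MG63, at 0.335 to 3.68 TPM.

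In the protease and plasminogen list, 5 of 26 were higher and 4 lower than in each line (19.2% and 15.4%, median difference -0.02). The matrix proteases MMP2 and MMP3 and the ADAMTS enzymes ADAMTS1, ADAMTS2 and ADAMTS5 were on the high side. MMP2, a gelatinase, averaged 1514 TPM against 1004 in G292 and 27 in KHOS, and MMP3 averaged 26.2 TPM against at most 8.50. ADAMTS2, which trims procollagen, stood at 106, 106 and 115 TPM against at most 21.3 TPM. MMP13, a collagenase of bone and cartilage, had 1 count in MG63 and 0.286 to 30.6 TPM elsewhere, and MMP19 had 0 counts. The urokinase receptor PLAUR (18.5 TPM against 44 to 293) was lower than in each line.

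Of 31 cytokine, chemokine and NF-kB genes, 4 were higher and 2 lower than in each line (12.9% and 6.45%), near the 9.52% and 7.87% over all genes. CSF1, the growth factor of macrophages and osteoclast precursors, stood at 523, 491 and 506 TPM against 6.07 TPM to 53 TPM, a log2 difference of 3.55 to 6.43. CCL2, a monocyte chemokine, stood at 83.5, 75.9 and 71.4 TPM, with U2OS at 25.1 TPM and G292 at 7.84 TPM. PTGS2, the inducible cyclooxygenase, averaged 21 TPM against 0.108 to 5.41, and the shared receptor chain IL6ST 110 TPM against 31.9 to 43.7. IL6 overlapped with KHOS and HOS-MNNG, at 3.73, 2.81 and 2.58 TPM against highest values of 4.64 TPM in KHOS and 2.71 TPM in HOS-MNNG. IL11, a bone-active cytokine of the same family, was at 0.533, 0.183 and 0.144 TPM against 4.88 to 308 TPM, and RELB at 1.41 TPM against 4.30 to 11.2. IFNB1 entered neither fit, with 6 counts in MG63 and 3 in the other lines.

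Of 18 MHC class I pathway genes, 6 were higher and 3 lower than in each line (33.3% and 16.7%, median difference 0.62). Those higher were the peptide transporter subunits TAP1 (135, 121 and 121 TPM against at most 45.6) and TAP2, the loading factor TAPBP, the trimming enzyme ERAP1 and the immunoproteasome subunits PSMB8 (297 to 305 TPM against at most 142) and PSMB9 (102 to 127 TPM against at most 28.8). PSMB10, the remaining immunoproteasome subunit, was lower than in each line, at 20.4 TPM against 32.3 to 36.7. HLA-E was lower, at 19.1 TPM against 35.6 to 51.1, and HLA-G had 0 counts. The HLA genes resemble one another and differ between people, so reads can be split or lost among them.

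Interferon response genes had 4 of 29 higher and 1 lower than in each line (13.8% and 3.45%, against 9.52% and 7.87% over all genes), with a median difference of 0.81. BST2, tetherin, stood at 243, 183 and 204 TPM against at most 14.2 TPM, and OAS3 at 35.8, 24.6 and 24.9 TPM against at most 15.3. IFI27 and MX1 were the other members higher. IFNAR2, a chain of the type I interferon receptor, averaged 5.54 TPM against 5.71 to 26.9.

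WNT genes had 8 of 49 higher and 5 lower (16.3% and 10.2%, median difference -0.11). Among ligands, WNT5B (173 TPM against 5.11 to 49.1), WNT9A (36.9 TPM against 0.183 to 4.19), WNT3 and WNT2B were higher. So were the secreted or intracellular antagonists DKK3 (741 TPM against 15.5 to 150), SFRP1 (196 TPM against 0.364 to 108), WIF1 and NKD2. Of the 5 members lower, 4 were receptors, while other receptors such as FZD1, FZD2, FZD5, FZD7, LRP5, LRP6, RYK and LGR4 were called in neither direction. FZD4 averaged 0.395 TPM against 1.61 to 8.54, FZD6 9.63 TPM against 27.9 to 50.3, FZD8 0.505 TPM against 1.17 to 16.6 and ROR1 2.63 TPM against 4.03 to 16. ZNRF3, a ligase that removes frizzled receptors, was called lower on counts, although its mean TPM in KHOS (3.32) was not above that in MG63 (3.34).

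In the TGF-beta, BMP and activin list, 9 of 48 were higher and 6 lower (18.8% and 12.5%, median difference -0.04). Ligands lay on both sides. GDF6 (22, 20.6 and 22.4 TPM against at most 1.66) and BMP7 were higher, while BMP4 (2.74 TPM against 10.3 to 537), TGFB1 (42.6 TPM against 51.6 to 337) and INHBA (0.242 TPM against 2.71 to 37.3) were lower. The extracellular antagonists CHRDL1 (91.6 TPM against 0.0103 to 7.78) and FST (130 TPM against 2.32 to 57.9) were higher, as were the intracellular inhibitor SMAD6, the membrane-bound inhibitor BAMBI and the target ID4. Of the receptors, ACVRL1 and BMPR1A were higher, and ACVR1B, ACVR2B and BMPR1B were lower.

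Among 45 receptor tyrosine kinases, 5 were higher and 1 was lower than in each line (11.1% and 2.22%, against 9.52% and 7.87% over all genes), and the share higher is near that over all genes. FGFR4, a receptor for fibroblast growth factors, stood at 241, 221 and 256 TPM, and the other libraries ran from 0.471 through a median of 6.08 to 33 TPM in U2OS. PDGFRB, the platelet-derived growth factor receptor of mesenchymal cells, stood at 67.4, 53.2 and 55.9 TPM against at most 38.4 TPM in G292. MUSK, the receptor of the muscle end plate, stood at 8.37, 7.52 and 6.06 TPM and did not exceed 0.024 TPM elsewhere. EPHA7 and EPHB3 averaged 5.89 and 9.57 TPM. LTK was the member lower than in each line, at or below 0.185 TPM.

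Transcription factors of limb and skeleton had 10 of 49 higher and 4 lower (20.4% and 8.16%, median difference 0.01). PITX1, a factor of the hind limb, stood at 362, 290 and 359 TPM against 10.3 to 44.9 TPM. MKX, of tendon, stood at 70.4, 77.5 and 68.5 TPM against at most 4 TPM in U2OS. BARX1 averaged 78.5 TPM with 31.2 and 32 TPM in HOS-MNNG and KHOS and 0.102 TPM or less in the rest, and FOXF1 averaged 65.2 TPM against at most 9.71. PRRX1, of limb mesenchyme, was lower than in each line at 0.522 TPM, with G292 at 222 TPM and the others at 1.23 to 4.68, and lost the call without replicate 3 of every line (smallest contrast -1.005). SOX9, the factor of cartilage, averaged 13 TPM against 33 to 73.7, and OSR1 and NKX3-2 were the other members lower.

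HOX genes, which set position along the body and limb, had 5 of 37 higher and 2 lower (13.5% and 5.41%), near the 9.52% and 7.87% over all genes. HOXB13 averaged 20.7 TPM against 0.00503 to 6.39 and HOXC12 4.68 TPM against 0.0213 to 1.49. HOXC10, HOXD8 and HOXA4 were the others higher. HOXA11, of the distal limb, was lower at 1.80, 1.94 and 2.17 TPM against 7.41 to 18.4 TPM, as was HOXA3, which lost the call without replicate 1 or 3 of every line (smallest contrast -0.39 and -0.70).

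Cell cycle inhibitors at the CDKN2A locus were low in MG63. CDKN2A, which encodes the inhibitors p16INK4a and p14ARF, had 0 counts in all 3 MG63 libraries. It was not the lowest by the rule, since KHOS was also at 0 and HOS-MNNG and U2OS were at 0.0592 and 0.0593 TPM. G292 and SAOS2 averaged 231 and 405 TPM. CDKN2B, its neighbour, had 0 counts as well, with 37.3 TPM in SAOS2, 5.07 TPM in G292 and 2.95 TPM in U2OS. RB1, the target of the pathway, was present at 46.8, 41.8 and 31.5 TPM, overlapping with G292 and HOS-MNNG. Of 22 G1 and RB genes, 2 were higher and 2 lower than in each line (9.09% each, against 9.52% and 7.87% over all genes). RBL2, a relative of RB1, averaged 93.3 TPM against 13.3 to 37.4 and the inhibitor CDKN2D 59.2 TPM against 6.93 to 37.8. The cyclins CCNE1 (5.23 TPM against 14.1 to 62.7) and CCND3 (38 TPM against 52.4 to 129) were lower, CCND3 without a call in all 5 contrasts when replicate 2 of every line was left out (smallest contrast -0.27). PLK2, a polo-like kinase, stood at 489, 374 and 327 TPM against at most 193 TPM and was higher than in each line, though not called in all 5 contrasts without replicate 2 of every line (smallest contrast 1.40, then 1.45). MDM2, a ubiquitin ligase, was inside the range at 14.8 to 18.1 TPM.

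Expression around CDKN2A changed abruptly along chromosome 9. From MPDZ to IFNE, 13105707 to 21482313 (GRCh38.p14), 27 protein-coding genes were tested, and 18 of them were highest in all 3 MG63 libraries. In the fit of libraries, 16 of 23 were higher than in each line, against 9.52% over all genes. The stretch and its ends were chosen after the values were seen, so these counts are a description. The median difference over its 27 genes was 1.78 on the log2(TPM + 1) scale.

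Within it, PSIP1, a chromatin-tethering coactivator, stood at 1055, 1100 and 902 TPM against 60 to 136 TPM, a log2 difference of 3.08 to 4.03. ZDHHC21, a palmitoyl transferase, stood at 163, 147 and 125 TPM against 1.78 to 8.95 TPM. SNAPC3, a subunit of the small nuclear RNA transcription complex, stood at 182, 166 and 146 TPM against 8.70 to 17.4 TPM. KLHL9, an adaptor of a ubiquitin ligase, stood at 202, 180 and 156 TPM against 9.39 to 23.8 TPM. With lines as units these 4 had adjusted p-values of 0.118, 0.0889, 0.117 and 0.117 by edgeR. NFIB, a nuclear factor I gene, averaged 125 TPM against at most 20.9 TPM in U2OS, and BNC2 72.1 TPM against at most 14.5. HACD4, a fatty acid enzyme, averaged 35.5 TPM against at most 2.88 TPM.

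The run was not unbroken. CNTLN averaged 8.35 TPM, within the 5.12 to 12.2 TPM of the other lines, and DENND4C 10.1 TPM against up to 12. PLIN2 and ADAMTSL1 were also inside the range. SH3GL2 was lower in MG63 than in any other line by its mean, at 0.00993 TPM against 0.0501 to 4.06 TPM, with a line-fit log2 fold change of -6.69, and was not called with lines as units or in all 5 contrasts. Smaller differences were seen for RRAGA (223 TPM against 56.6 to 84.1), FOCAD (40.5 TPM against 8.86 to 20.8), HAUS6 (36.4 TPM against 14.1 to 26.6) and the ribosomal protein gene RPS6 (2964 TPM against 711 to 2276). HAUS6 lost its call in all 5 contrasts without replicate 2 of every line (smallest contrast 0.24), and RPS6 was not called. Of the interferon genes tested there, IFNW1 and IFNA1 averaged under 1 TPM in every line, and IFNE was higher than in each line, with 4.86, 3.80 and 4.52 TPM against at most 1.83 TPM.

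Beyond the run, the levels dropped. DMRTA1, 0.48 Mb past the start of CDKN2A, had 0 counts in MG63 and 0.785 to 2.61 TPM in the other libraries. ELAVL2, 1.72 Mb past it, also had 0 counts, with line means of 0.19 TPM in KHOS to 25 TPM in G292. TUSC1, at 3.71 Mb, was present again at 14.7, 14.1 and 14.9 TPM, within the range of the other lines. DNA copy number was not measured in these files, and its part in this pattern was not tested.

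**Figure D4:**
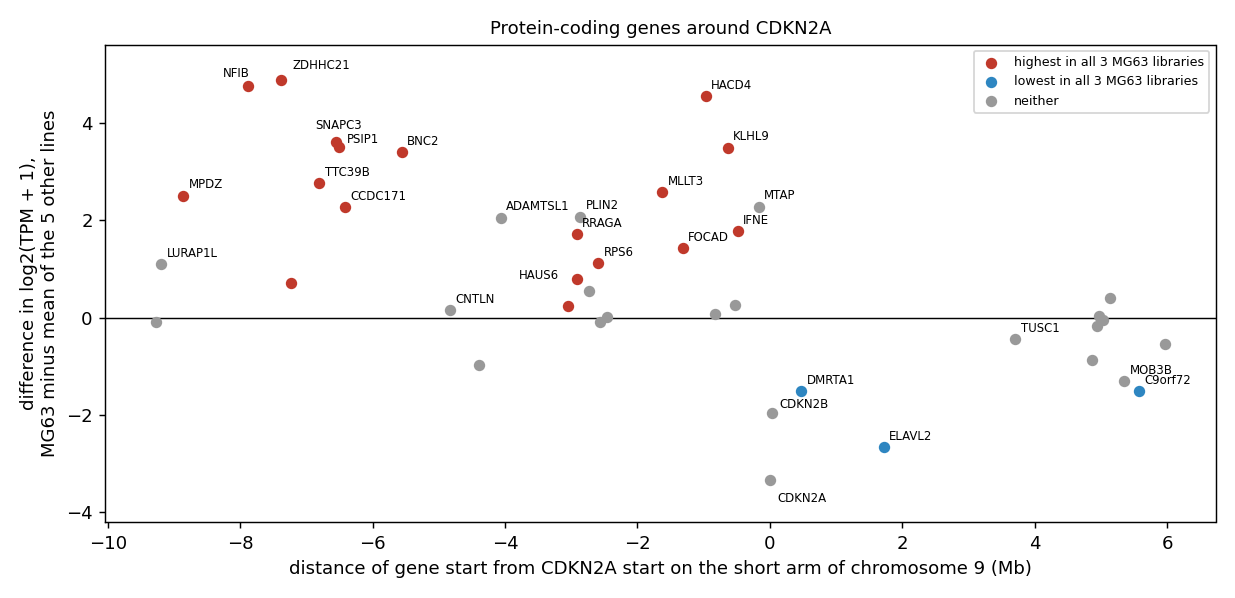
Difference in log2(TPM + 1) between MG63 and the mean of the 5 other osteosarcoma lines (y axis) for each protein-coding gene tested, by distance of its start from that of CDKN2A on chromosome 9 (x axis, Mb). Genes from MPDZ to IFNE lie mostly above 0, with ZDHHC21 and NFIB highest, and CDKN2A, CDKN2B, DMRTA1 and ELAVL2 lie below it.

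MTAP, the gene between the run and CDKN2A, which salvages methylthioadenosine, was present in MG63 with a different set of transcripts. Its level was 46.9, 48.2 and 44.9 TPM, close to G292 (51.9 TPM) and SAOS2 (41.1 TPM), while HOS-MNNG and KHOS were at 0.217 and 0.139 TPM. In MG63, NM_001396042.1 held 83.2% and NM_001396045.1 15.3% of the level. The transcripts NM_002451.4 and NM_001396043.1, which averaged 15.5 and 28.1 TPM in G292, 13.5 and 18.8 TPM in SAOS2 and 7.85 and 14.8 TPM in U2OS, stood at 0 and 0.216 TPM in MG63. The line-fit log2 fold change on counts was -0.73, but it was 1.23 on counts with libraries as units, and on log2(TPM + 1) MG63 lay above the mean of the other lines by 2.27. The line fit set MG63 against the mean count level of the other lines. The other values averaged those lines on a log scale, where HOS-MNNG and KHOS near 0 TPM lower the mean more. The part of this in the turn was not tested.

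**Figure D5:**
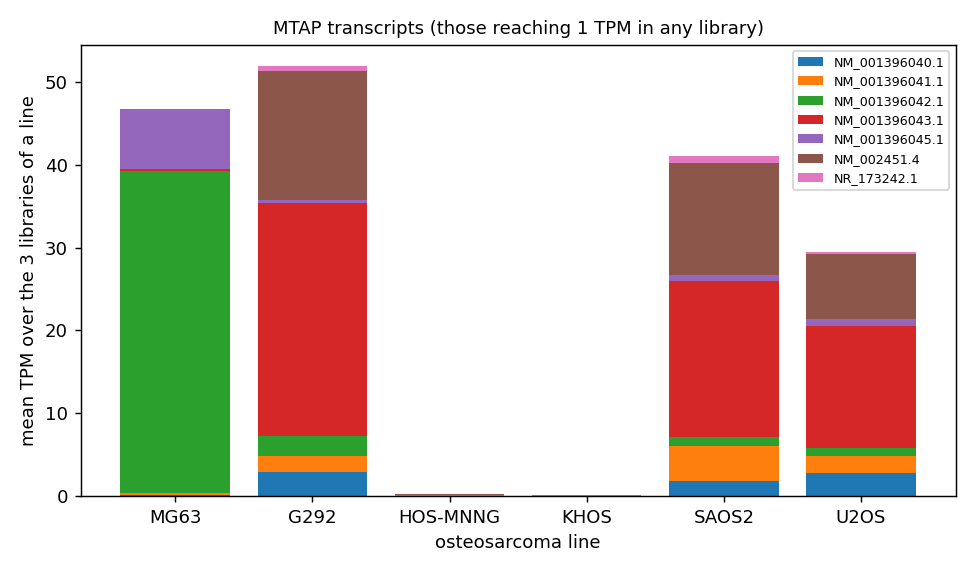
Mean TPM of each MTAP transcript that reached 1 TPM in any library (stacked bars, y axis) in the 6 osteosarcoma lines (x axis). MG63 is filled by NM_001396042.1 (38.8 TPM) and NM_001396045.1 (7.20 TPM), whereas G292, SAOS2 and U2OS are filled mainly by NM_001396043.1 and NM_002451.4, and HOS-MNNG and KHOS are near 0.

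Other chromosome segments also held many genes at 1 extreme. Genes whose log2 CPM averaged 1 or more were binned by start in fixed 10 Mb windows, and 266 windows held at least 15 such genes. Over all 12529 genes, 10.4% were highest and 12.7% lowest in MG63. In 10 windows at least 40% were highest, among them 10 to 20 Mb of chromosome 9 (11 of 16), 130 to 140 Mb of chromosome 5 (31 of 64) and 50 to 60 Mb of chromosome 16 (25 of 53). In 15 windows at least 40% were lowest, among them 40 to 50 Mb of chromosome 4 (12 of 20), 40 to 50 Mb of chromosome 3 (52 of 101) and 40 to 50 Mb (10 of 20) and 60 to 70 Mb (26 of 53) of chromosome 14. Some single genes in these windows were nearly absent from MG63. OCIAD2, on chromosome 4, stood at 0.578, 0.318 and 0.277 TPM in MG63 against 69 to 198 TPM elsewhere. GPHN, the scaffold protein gephyrin on chromosome 14, stood at 0.151, 0.144 and 0 TPM against line means of 8.49 to 29.2 TPM, and its leading transcript NM_020806.5 was at 0 in all 3 libraries. These windows were examined after other results were known and were not tested.

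Among cell division genes, MKI67, a proliferation marker, stood at 81.9, 72.7 and 78.7 TPM, inside the 46.9 to 121 TPM of the other libraries. Of 29 S phase genes, 4 were higher and 4 lower than in each line (13.8% each, median difference -0.05). Helicase subunits of the same complex went in opposite directions. MCM3 stood at 1033, 1152 and 1106 TPM against 117 to 255 TPM, MCM2 and MCM6 averaged 170 and 115 TPM against at most 135 and 73.1, and MCM7 averaged 182 TPM against 243 to 518. The licensing factor CDT1, GINS1 and UHRF1 were the others lower, and RFC4 the other one higher. Of 29 G2/M genes, 5 were higher and 1 lower (17.2% and 3.45%, median difference 0.30). KIF20A, a kinesin of late mitosis, stood at 244, 284 and 256 TPM against at most 115 TPM, and CCNA2, CDC25C, HMMR and TOP2A were also higher, by smallest contrasts of 0.31, 0.55 and 0.50 log2 units for the first 3. Each of those 3 was no longer called in all 5 contrasts without replicate 2 of every line, at 0.19, 0.40 and 0.43. CCNA2 also lost the call with the replicate block (0.31), without KHOS (0.31), without a filter on low counts (0.24) and without replicate 3 (0.31), and HMMR without a filter (0.43) and without replicate 3 (0.54).

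Telomere genes showed no member higher and 1 of 13 lower than in each line, TINF2 of shelterin, at 22.6 TPM against 26.1 to 50. That share of 7.69% is near the 7.87% over all genes, and TINF2 was not called in all 5 contrasts without replicate 2 of every line (smallest contrast -0.30). TERT, the catalytic subunit of telomerase, was detected in all 3 MG63 libraries at 0.642, 0.656 and 0.707 TPM. That lay between U2OS (0.0265 TPM), G292 and SAOS2 (both 0) on one side and HOS-MNNG (1.38 TPM) and KHOS (2.65 TPM) on the other. NOP10, ACD and TERF2 were lowest in MG63 without being called in all 5 contrasts.

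Of the calcium-activated potassium channels, the family of the study's gene KCNN1, 1 of 5 was lower and none higher than in each line, where 7.87% and 9.52% of all genes were. KCNN4, the intermediate-conductance channel, stood at 8.14, 5.99 and 6.74 TPM against 8.33 TPM in HOS-MNNG at the least, a median of 61.4 and 117 TPM at the most. KCNN1 was at 0.124, 0.109 and 0.061 TPM, among the low values of 4 other lines and below the 4.36 TPM of U2OS. The Ewing lines averaged 7.57 to 48.9 TPM for KCNN1. KCNMA1, the large-conductance channel, stood at 108, 98.2 and 105 TPM, between G292 (54.3 TPM) and HOS-MNNG (118 TPM). Cancer-testis antigens had 0 of 25 higher and 1 lower (0% and 4%, against 9.52% and 7.87% over all genes), namely TEX15, which had 2 counts. TEX15 was not called in all 5 contrasts by DESeq2 (smallest contrast -2.02), with the replicate block (-1.91), without a filter on low counts (-1.91), without G292, HOS-MNNG or SAOS2 (-1.85 to -1.90), or without replicate 2 or 3 of every line (-1.39 and -1.90).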

How the data were processed

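Per the labels, a NucleoSpin kit gave the RNA and an Illumina TruSeq stranded mRNA kit the libraries. The submitters' processing notes name fastp 0.19.5, kallisto 0.46.2 and GRCh38.p14. The authors deposited, per the file headers, 1 table per library of 177816 RefSeq transcripts with estimated counts (expected counts, not scaled for depth) and TPM. Of these, 169966 (95.6%) matched a gene of the RefSeq annotation of GRCh38.p14, and both values were summed over 41582 genes. Unmatched transcripts, 1.14% to 1.6% of counts, were left out.

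Counts were rounded and filtered with filterByExpr, libraries were scaled with TMM, and edgeR 4.0.16 (glmQLFit, robust) was fitted once on the 6 line sums (1 against 5) and once on the 18 libraries (5 contrasts). P-values were adjusted by Benjamini and Hochberg over all genes, with a threshold of 0.05. Alternatives used DESeq2 1.42.0 and limma 3.58.1 (R 4.3.3), and tables were made with pandas 2.3.3. Differences of TPM used a pseudocount of 1. The scripts were tested on simulated data.

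The members and the 25 gene lists were chosen with earlier results of these data known. Named genes were a preset group, the 12 at either end by line-fit fold change among genes highest or lowest in MG63 and called in all 5 contrasts, and up to 4 per list. Genes named beyond these are members given by list, or are said to be chosen after their values were seen. Y-linked genes were not described, and 5 other genes and 1 gene list are not reported here. A 0 over a line was bounded with 3 counts. Intervals cover counting error only, because without molecular identifiers several reads can stem from 1 molecule.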

Additional observations from a re-analysis of the deposited data

Results flagged for a closer look

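The line means of the other 5 osteosarcoma lines were examined for each named gene, and a line is given here where its gap to the nearest other line exceeded 0.71 of the range of the 5 lines on the log2(TPM + 1) scale. Chance alone would mark about 1 in 20 groups of 5 independent values. HOS-MNNG and KHOS are not independent of each other, so that rate need not hold here. Among 165 genes there were 13 cases. In U2OS, PCLO stood at 52.6 TPM, CCNE1 at 62.7, CLDN4 at 15.9, MMP19 at 8.71, KCNN1 at 4.36 and BCL11B at 1.89 TPM above the other 4 lines, and ORC1 at 26.1 TPM below them. In G292, PRRX1 stood at 222 TPM, POSTN at 65.6, MMP13 at 22.5 and OAS3 at 10.7 TPM above the others, and DMRTA1 at 0.831 TPM below them. In SAOS2, RUNX2 stood at 187 TPM above the others.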

How the results depend on the processing

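With lines as units, the count of 0 genes held under RLE size factors, without a filter, with HOS-MNNG and KHOS summed and with any line or replicate left out (0 to 0). DESeq2 called 655, limma 259 on log2(TPM + 1) and 134 on log2(TPM + 0.1). Treating the 18 libraries as units against the mean of line means called 14185, and 14139 with the replicate block. In the 5 contrasts, counts stayed within 1.5 times of 2087 and 1725. The replicate block gave 2087 and 1734, DESeq2 2063 and 1657, leaving out a replicate number 1605 to 2044 and 1375 to 1568, and leaving out a line at most 2849 and 2278. Same-numbered libraries of MG63 and another line correlated at -0.075 to 0.085, so the numbers were not taken as pairs. The genes highest and lowest in MG63 numbered 2249 and 1927 by CPM, and 2324 to 3075 and 2108 to 2656 with a line or replicate number left out.

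Directions with lines as units turned for 6 genes of no call. COL1A1 (0.09) fell to -0.19 with the HOS lines summed, to -0.21, -0.17 and -0.026 without HOS-MNNG, KHOS or U2OS, and to -0.14 without replicate 3 of MG63 or of every line, and reached 1.32 without SAOS2, 1.04 with libraries as units (with or without the replicate block) and 1.01 by limma with either pseudocount. TERT (-0.57) gave 0.11 with the HOS lines summed, 0.76 without KHOS, -0.89 without G292, 3.62 and 3.61 with libraries as units (without and with the replicate block) and 1.14 and 0.11 by limma on log2(TPM + 0.1) and log2(TPM + 1). MTAP (-0.73) gave 1.23 and 1.23 with libraries as units and 3.11 and 2.27 by limma. KCNN1 (-3.09) gave 0.16 without U2OS and -3.44 without HOS-MNNG. It was smaller with libraries as units (-0.94 with or without the replicate block) and by limma on log2(TPM + 0.1) and log2(TPM + 1) (-0.76 and -0.44). MKI67 (0.05) gave -0.018 and -0.0083 without SAOS2 or U2OS, -0.0084 and -0.017 without replicate 3 of MG63 or of every line, and 0.19 without G292. CNTLN (0.11) gave -0.018 without U2OS and 0.25 without SAOS2. The cause was not tested.

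Of the named genes called in all 5 contrasts, 15 lost a call under some alternative, with the direction kept in each. By smallest contrast these were STC1 (-8.31; -8.15 to -8.52 without a replicate number or U2OS), DLX5 (-4.49; -3.18 and -4.30 without replicate 1 or 3), TENM3 (-6.40; -5.70 without replicate 1), PRRX1 (-1.06; -1.005 without replicate 3), HOXA3 (-0.63; -0.39 and -0.70 without replicate 1 or 3), DES (1.21; 0.97 and 1.07 without replicate 2 or 3), PLK2 (1.40; 1.45), CCND3 (-0.29; -0.27), TINF2 (-0.34; -0.30) and HAUS6 (0.33; 0.24), these last 4 without replicate 2. TEX15 went from -1.90 to between -1.39 and -2.02 under 8 alternatives. COL1A2, CCNA2, CDC25C and HMMR were the others, with their values given beside the results. Depth limits the genes with 0 to 3 counts in MG63, where 2 of 3 libraries had the lowest totals of the osteosarcoma lines.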
